A study of Mus musculus with 8 samples.

Results

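The 10 genes described here encode the epithelial sodium channel (ENaC) and the mineralocorticoid and WNK kinase control of distal sodium uptake. They were taken by symbol from the 22609 genes of the count table, and all 10 were found and tested: Scnn1a, Scnn1b, Scnn1g, Nr3c2, Hsd11b2, Nedd4l, Wnk1, Wnk4, Stk39 and Klhl3. Their levels were measured by RNA-Seq in the renal cortex of 4 aged mice (30 months by the sample labels) and 4 young mice (5 months). All were male mice of the C57BL6 strain with no treatment listed, each gave one library, and ribosomal RNA was removed before sequencing. The study's methods give a somewhat higher mean age for the aged mice than the labels. The study asked which kidney mRNAs change with age, so the single comparison is aged against young.

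ENaC is the apical channel through which the last segments of the distal nephron reabsorb sodium, and it is built from an alpha, a beta and a gamma subunit. Aldosterone binds the mineralocorticoid receptor in these cells, and the enzyme encoded by Hsd11b2 inactivates glucocorticoids that would otherwise occupy that receptor. The ubiquitin ligase encoded by Nedd4l removes ENaC from the membrane, while WNK kinases act upstream of the thiazide-sensitive sodium chloride cotransporter of the distal convoluted tubule.

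None of the 10 genes passed the criteria for a change with age, an adjusted p below 0.05 with a fold change above 1.5. This was 0 of 10, against 2.06% of the 13944 genes tested (287 genes). At an adjusted p below 0.05 alone it was also 0 of 10, against 2.95% of all genes (411 genes). Nedd4l and Scnn1b had an unadjusted p below 0.05 in edgeR's quasi-likelihood test, both lower in aged mice, against 12.1% of all genes at that level in the same direction. Nedd4l, lower in aged mice, was the 1 gene of 10 whose aged and young values did not overlap, against 18.9% of all genes that were separated in either direction. The median log2 fold change was 0.02 over the 10 genes and 0.03 over all genes tested, with 7 of the 10 positive and 3 negative.

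Aged libraries held 14820804 to 19018543 read pairs on genes and young libraries 15152597 to 19821429. Levels are given as CPM, counts scaled to a common library size with edgeR's TMM factors. A floor of 3 counts corresponded to 0.151 to 0.202 CPM without those factors, far below every value of the 10 genes. Aged mouse 1 stood apart from the other 7 libraries, at -71.5 on a first principal component (48.1% of the variance) on which the others lay between -16.3 and 26.2. Slc14a2, which encodes the urea transporter of the inner medulla and should be near 0 in cortex, was at 89.2 CPM in aged mouse 1 and 26.7 CPM in young mouse 1, against at most 0.327 CPM in the other 6. Of all counts, including lines that name no gene, 22.6% to 29.9% fell on no gene in aged mice. In young mice this share was 20.0% to 25.1%. Where leaving out aged mouse 1 turned the direction of any of the 10 genes, the value without it is given as well. It is also given for some, but not all, other values that moved. Because whole cortex was sequenced, fewer cells of a segment and less RNA per cell cannot be told apart.

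The genes for the beta and gamma subunits lie next to each other, in the same orientation, on mouse chromosome 7 (mm9), with Scnn1g at chr7:128877993-128911989 and Scnn1b at chr7:129008591-129062029, 96601 nt apart. The alpha subunit gene Scnn1a is on chromosome 6 (chr6:125271358-125294958, mm9). The promoters of both neighbours are shown because these 2 genes share a locus and a channel. Across the 8 libraries their log2 CPM had a Pearson r of 0.652, although the order of the libraries was not the same for both. Each runs from 250 bases before to 50 bases after the start site in RefSeq (GRCm38.p6, plus strand), Scnn1b at chr7:121864788-121865087 and Scnn1g at chr7:121734229-121734528. Capitals mark the GC box, GGGCGG or its complement CCGCCC, a motif chosen after the values had been seen.
Scnn1b: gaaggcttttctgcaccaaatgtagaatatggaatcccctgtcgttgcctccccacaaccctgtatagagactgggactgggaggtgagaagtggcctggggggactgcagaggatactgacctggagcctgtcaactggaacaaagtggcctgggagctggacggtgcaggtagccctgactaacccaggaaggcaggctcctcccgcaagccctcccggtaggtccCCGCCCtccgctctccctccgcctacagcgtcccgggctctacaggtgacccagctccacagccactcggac
Scnn1g: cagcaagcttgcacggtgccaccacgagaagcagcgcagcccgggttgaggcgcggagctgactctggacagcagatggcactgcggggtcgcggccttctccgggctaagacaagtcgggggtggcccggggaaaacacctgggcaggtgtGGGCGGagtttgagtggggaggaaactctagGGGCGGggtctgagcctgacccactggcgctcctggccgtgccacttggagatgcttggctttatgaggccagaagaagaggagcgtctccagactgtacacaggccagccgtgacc
The Scnn1b window held 1 GC box and the Scnn1g window 2, and 35.7% of 32851 RefSeq promoter windows of this length held at least 1. A promoter entry was matched for 7 of the 10 genes. In these 7 windows the steroid receptor half-site AGAACA (or TGTTCT), found in 19.0% of all windows, was not present. The E-box CACGTG, found in 7.15% of all windows, was also not present in any of the 7. GC boxes numbered 5 in the Wnk1 window, 4 in that of Stk39, 3 in each of those of Nr3c2 and Wnk4 and 0 in that of Klhl3.

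None of the channel subunits passed the test. Scnn1a, the alpha subunit, was at 173, 116, 144 and 134 CPM in aged mice 1 to 4 and at 145, 124, 139 and 139 CPM in young mice 1 to 4. Aged mouse 1 was the highest and aged mouse 2 the lowest of all 8, so the aged values enclosed the young ones. The means were 141 ± 23.7 CPM for aged and 137 ± 9.25 CPM for young mice (SD, n = 4 each). Its log2 fold change was 0.05 ± 0.12 (SE; adjusted p = 0.822), with a 95% interval of the fold change from 0.855 to 1.25. It turned to -0.06 (adjusted p = 0.707) without aged mouse 1 and was -0.03 (adjusted p = 0.885) without aged mouse 1 and young mouse 1.

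Scnn1b, the beta subunit, was at 31.3, 36.4, 43.0 and 36.8 CPM in aged mice 1 to 4 and at 46.7, 43.3, 46.7 and 40.0 CPM in young mice 1 to 4. Aged mouse 1 was the lowest and only aged mouse 3 reached into the young range. The means were 36.9 ± 4.78 CPM for aged and 44.2 ± 3.19 CPM for young mice (SD, n = 4 each). The log2 fold change of -0.26 ± 0.11 (SE) did not pass the adjustment over all genes (edgeR, unadjusted p = 0.0360, adjusted p = 0.168). Without aged mouse 1 it was -0.19 (adjusted p = 0.221), and without aged mouse 1 and young mouse 1 it was -0.16 (adjusted p = 0.399).

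Scnn1g, the gamma subunit, was at 27.1, 42.3, 53.7 and 45.8 CPM in aged mice 1 to 4 and at 40.8, 43.5, 44.6 and 37.8 CPM in young mice 1 to 4. The aged libraries held both the lowest value, in mouse 1, and the 2 highest, in mice 3 and 4. Its means were 42.2 ± 11.2 CPM for aged and 41.7 ± 3.03 CPM for young mice (SD, n = 4 each), and the coefficient of variation was 26.5% in aged against 7.28% in young mice. Over all libraries the log2 fold change was 0.02 ± 0.18 (SE; adjusted p = 0.954), and it was 0.18 (adjusted p = 0.269) without aged mouse 1.

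**Figure D1:**
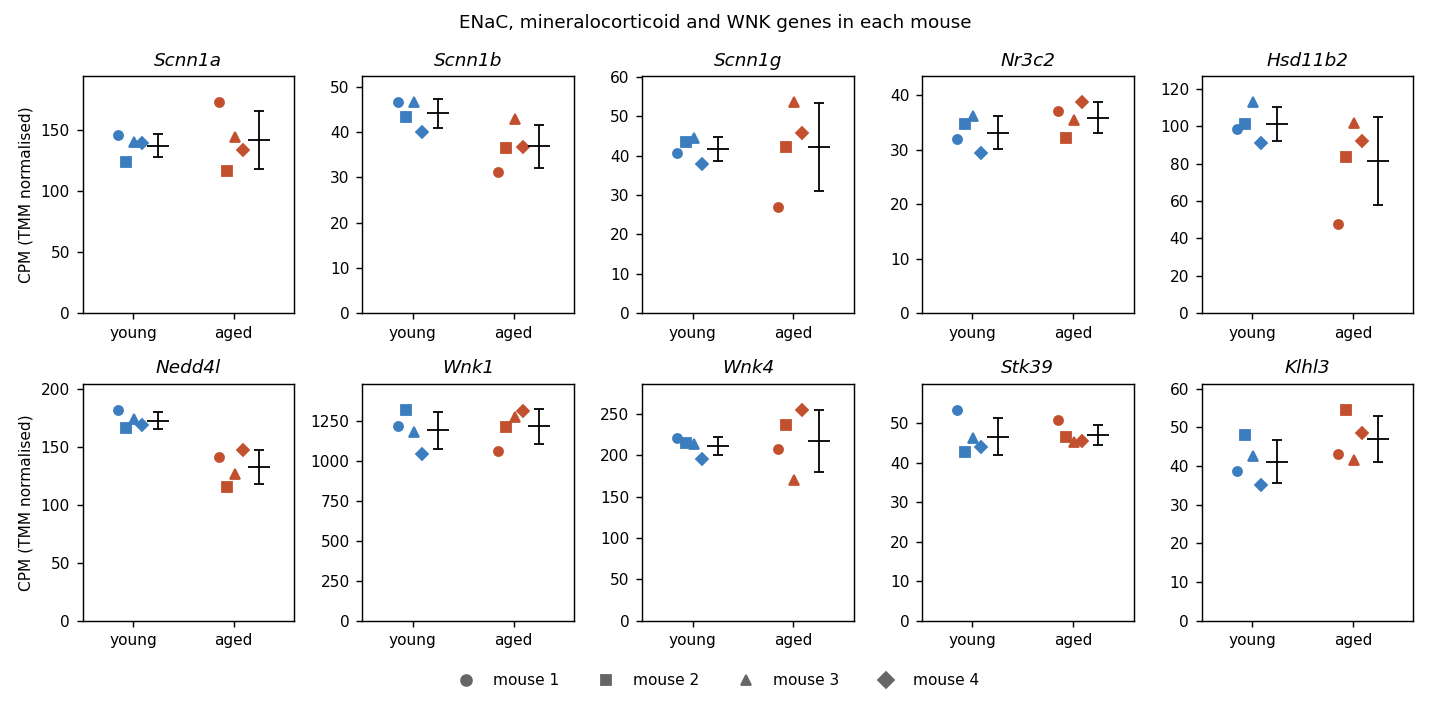
Level of each of the 10 genes in CPM, from 0 on the vertical axis, in the 4 young (blue) and 4 aged (red) mice, with the mouse number as the symbol and the mean and SD at the right of each group. Aged Nedd4l values, 115 to 147 CPM, all sit below the young values, 166 to 182 CPM, while in the other 9 panels the groups overlap.

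Ratios of counts within a library do not depend on how libraries are scaled, and 6 were compared with a two-sided exact permutation test of the log2 ratio, for which 4 against 4 allows no p below 0.0286. The ratio of Scnn1b to Scnn1a was 0.181, 0.314, 0.299 and 0.276 in aged mice 1 to 4, against 0.321, 0.350, 0.335 and 0.288 in young mice 1 to 4. The groups overlapped, and the mean log2 ratio differed by -0.30 (exact permutation p = 0.114, adjusted over the 6 ratios 0.214). Without aged mouse 1 this difference was -0.13. The ratio of Scnn1g to Scnn1a was 0.157 in aged mouse 1 and 0.343 to 0.374 in the other aged mice, against 0.272 to 0.352 in young mice, with no difference beyond the spread (mean log2 difference -0.06, exact permutation p = 0.971, adjusted 1). The direction turned without aged mouse 1, to a difference of 0.24 (exact permutation p = 0.114), and the difference was 0.20 without aged mouse 1 and young mouse 1.

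The ratio of Scnn1b to Scnn1g was 1.16, 0.860, 0.800 and 0.804 in aged mice 1 to 4, against 1.14, 0.995, 1.05 and 1.06 in young mice 1 to 4. Aged mice 2, 3 and 4 lay below every young mouse and aged mouse 1 lay above them. The mean log2 ratio differed by -0.25 (exact permutation p = 0.143, adjusted 0.214), and by -0.37 without aged mouse 1. That value has an exact permutation p of 0.0571, which is the smallest that 3 against 4 allows.

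Nr3c2 encodes the mineralocorticoid receptor. It was at 37.1, 32.1, 35.4 and 38.8 CPM in aged mice 1 to 4 and at 32.1, 34.8, 36.2 and 29.4 CPM in young mice 1 to 4. The groups overlapped, at means of 35.9 ± 2.85 CPM for aged and 33.1 ± 3.03 CPM for young mice (SD, n = 4 each) (log2 fold change 0.12 ± 0.09, SE; adjusted p = 0.454). The glucocorticoid receptor gene Nr3c1 was at 140 to 242 CPM in aged and 207 to 257 CPM in young mice (log2 fold change -0.15 ± 0.16, SE; adjusted p = 0.586), with its lowest value in aged mouse 1 (-0.002 without it). The ratio of Nr3c2 to Nr3c1 counts was 0.266 in aged mouse 1, 0.141 to 0.168 in the other aged mice and 0.131 to 0.159 in young mice. Its mean log2 difference was 0.29 (exact permutation p = 0.143, adjusted 0.214) and 0.10 without aged mouse 1.

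Hsd11b2, the glucocorticoid-inactivating dehydrogenase that marks aldosterone-responsive cells, was at 47.8, 83.8, 102 and 92.5 CPM in aged mice 1 to 4 and at 98.6, 101, 113 and 91.3 CPM in young mice 1 to 4. Aged mouse 1 stood 0.516 times the mean of the other aged mice, and aged mice 3 and 4 lay within the young range. The means were 81.5 ± 23.7 CPM for aged and 101 ± 9.14 CPM for young mice (SD, n = 4 each). The log2 fold change was -0.31 ± 0.20 (SE; adjusted p = 0.357), and -0.12 (adjusted p = 0.445) without aged mouse 1.

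Set against the receptor in the same library, Hsd11b2 was lower in every aged mouse. The ratio of Hsd11b2 to Nr3c2 counts was 1.29, 2.61, 2.88 and 2.38 in aged mice 1 to 4, against 3.08, 2.91, 3.13 and 3.11 in young mice 1 to 4. The groups did not overlap, although aged mouse 3 and young mouse 2 were close together. The mean log2 ratio differed by -0.48 (exact permutation p = 0.0286, the smallest possible), which did not pass the adjustment over the 6 ratios (0.171). The difference was -0.22 without aged mouse 1, with an exact permutation p of 0.0571, the smallest that 3 against 4 allows, and -0.22 without both aged mouse 1 and young mouse 1.

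**Figure D2:**
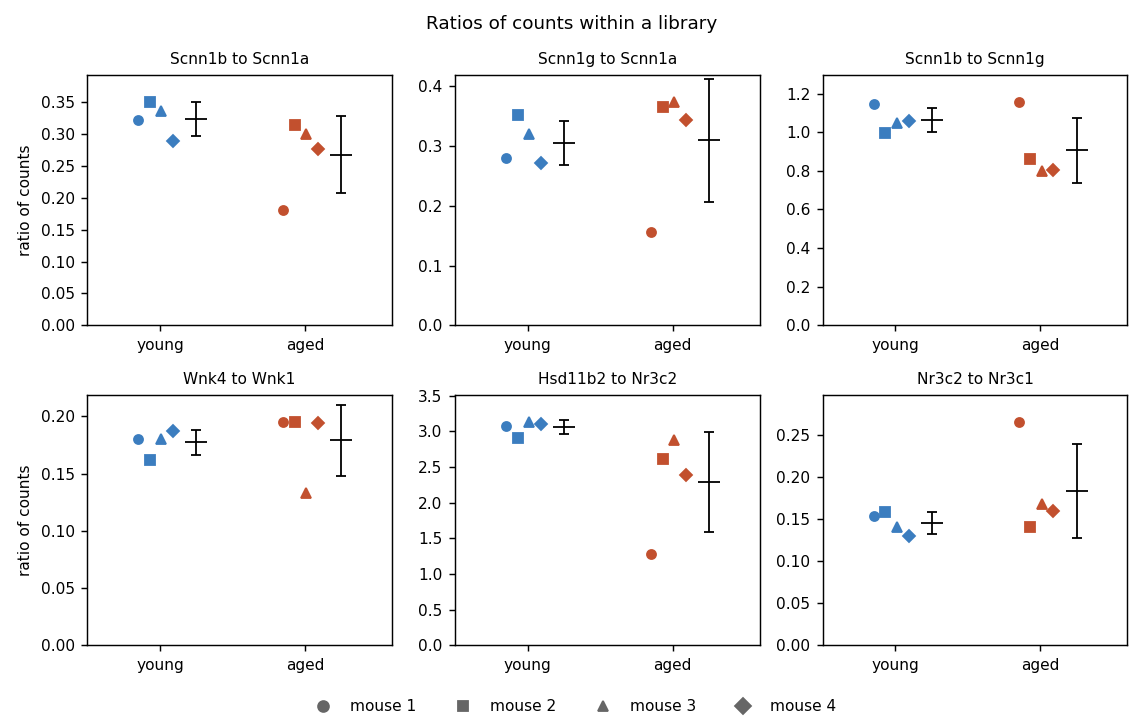
The 6 ratios of counts between genes of one library, from 0 on each vertical axis, for 4 young (blue) and 4 aged (red) mice, with the mouse number as the symbol and the mean and SD at the right. The ratio of Hsd11b2 to Nr3c2 is at most 2.88 in aged and at least 2.91 in young mice, and aged mouse 1 lies apart from the other aged mice in 5 of the panels but not in that of Wnk4 to Wnk1.

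Nedd4l, which encodes the ubiquitin ligase that removes ENaC from the membrane, showed the smallest p of the 10 genes. It was at 141, 115, 127 and 147 CPM in aged mice 1 to 4 and at 182, 166, 174 and 169 CPM in young mice 1 to 4. Every aged value was below every young value, and aged mouse 1 lay within the range of the other aged mice. The means were 133 ± 14.4 CPM for aged and 173 ± 7.12 CPM for young mice (SD, n = 4 each). The log2 fold change was -0.38 ± 0.09 (SE), a fold change of 0.769, with an unadjusted p of 0.00254 in edgeR and an adjusted p of 0.0597, which misses the threshold. It ranked 593 of the 13944 genes by p, and its 95% interval of the fold change ran from 0.666 to 0.888. The adjusted p was 0.0386 without aged mouse 1, 0.103 without aged mouse 1 and young mouse 1, and 0.00358 with DESeq2 in place of edgeR.

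None of the WNK branch genes passed the test. Wnk1 also gives a short kidney transcript without the kinase domain, which gene-level counts do not separate. It was at 1065, 1215, 1279 and 1317 CPM in aged mice 1 to 4 and at 1225, 1325, 1183 and 1048 CPM in young mice 1 to 4. The ranges were almost the same, and the log2 fold change was 0.03 ± 0.12 (SE; adjusted p = 0.891).

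Wnk4, like Wnk1 a gene of familial hyperkalemic hypertension, was at 208, 237, 170 and 255 CPM in aged mice 1 to 4 and at 220, 214, 214 and 196 CPM in young mice 1 to 4. The aged values enclosed the young ones, with aged mouse 3 the lowest and aged mouse 4 the highest of all 8. Between the groups the log2 fold change was 0.04 ± 0.12 (SE; adjusted p = 0.849). The ratio of Wnk4 to Wnk1 counts was 0.133 in aged mouse 3, 0.194 to 0.195 in the other aged mice and 0.162 to 0.187 in young mice, and its mean log2 differed by -0.002 (exact permutation p = 1).

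Stk39 encodes SPAK, the kinase through which WNK kinases phosphorylate the cotransporter. It was at 50.7, 46.5, 45.2 and 45.4 CPM in aged mice 1 to 4 and at 53.4, 42.8, 46.2 and 44.0 CPM in young mice 1 to 4, with the 2 highest values in mouse 1 of each group. It had a log2 fold change of 0.01 ± 0.09 (SE; adjusted p = 0.947), with a 95% interval of the fold change from 0.877 to 1.16, and it was -0.03 without aged mouse 1. Klhl3 encodes the adaptor that brings WNK kinases to the cullin 3 ubiquitin ligase. It was at 43.0, 54.6, 41.5 and 48.5 CPM in aged mice 1 to 4 and at 38.8, 48.0, 42.6 and 35.0 CPM in young mice 1 to 4. The groups overlapped, with the highest value in aged mouse 2 and the lowest in young mouse 4 (log2 fold change 0.19 ± 0.12, SE; adjusted p = 0.352).

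A p that misses the threshold does not show equal levels, so the intervals matter. For 8 of the 10 genes the 95% interval of the fold change lay within 1.5-fold in both directions. The exceptions were Nedd4l, with a lower bound of 0.666, and Hsd11b2, with an interval from 0.585 to 1.11.

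**Figure D3:**
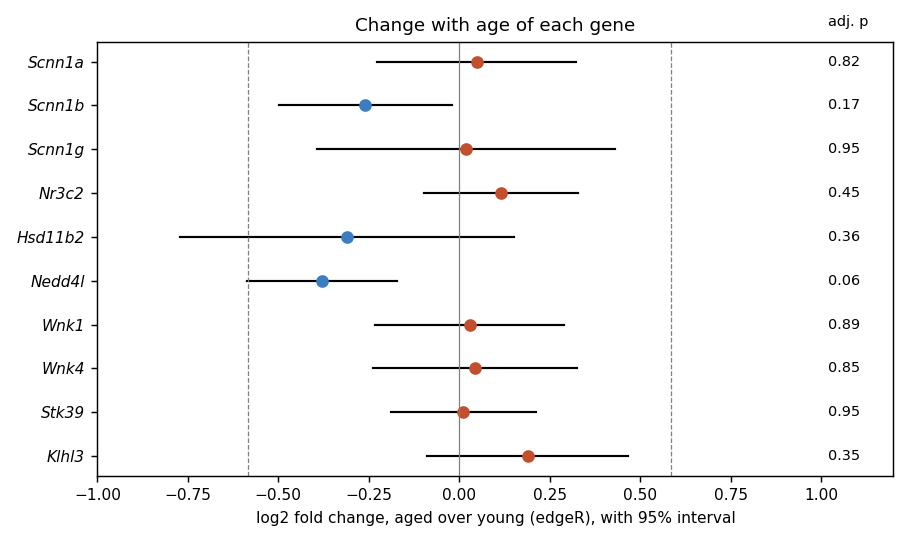
Log2 fold change of each gene, aged over young, as points (red above 0, blue below 0) with 95% intervals from the edgeR fit over all genes, the adjusted p at the right, and dashed lines at a fold change of 1.5 either way. The intervals of Nedd4l and Scnn1b lie below 0, and those of Nedd4l and Hsd11b2 cross the lower dashed line.

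To compare levels between genes, CPM was divided by the length of the longest coding transcript in kb. In young mice Wnk1 was highest at 113 ± 10.9 CPM per kb (SD, n = 4), followed by Hsd11b2 at 54.8 ± 4.95, Wnk4 at 51.3 ± 2.54 and Scnn1a at 39.1 ± 2.64 CPM per kb. Nedd4l at 21.0, Scnn1b at 17.0, Scnn1g at 13.9, Stk39 at 13.2 and Klhl3 at 13.0 CPM per kb came next, and Nr3c2 was lowest at 5.59 ± 0.512 CPM per kb. The alpha subunit had the highest mRNA level per length of the 3 channel subunits in young mice. The young ranges of Hsd11b2 and Wnk4 overlapped, as did those of Scnn1g with Stk39 and of Stk39 with Klhl3, and the other neighbours in this order did not overlap.

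In aged mice Wnk1 was again first and Nr3c2 last, at 115 ± 10.5 and 6.06 ± 0.481 CPM per kb (SD, n = 4). Wnk4 at 52.8 CPM per kb had a higher mean than Hsd11b2 at 44.2, and Klhl3 at 14.9 had a higher mean than Scnn1b at 14.2, in each case with overlapping ranges. A gene's transcript length in this tissue was not measured, and the per-length level of Wnk1 rests on its long transcript of 10575 nt.

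**Figure D4:**
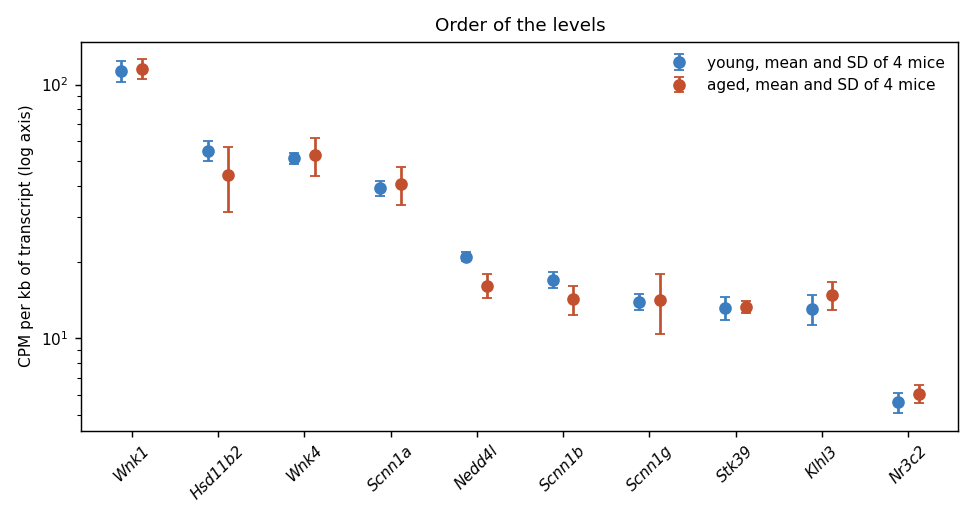
Level of each gene per length in CPM per kb of transcript on a log axis, as mean and SD of 4 young (blue) and 4 aged (red) mice, ordered by the young mean. Levels run from 5.59 for Nr3c2 to 113 for Wnk1 in young mice, and the aged means follow nearly the same order.

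The spread between mice was not larger in aged mice for every gene. The coefficient of variation was larger in aged than in young mice for 6 of the 10 genes, Scnn1a, Scnn1b, Scnn1g, Hsd11b2, Nedd4l and Wnk4, against 83.2% of all genes tested. It was smaller in aged mice for Nr3c2, Wnk1, Stk39 and Klhl3, and for Stk39 it was 5.46% in aged against 10.2% in young mice. Aged mouse 1 lay below the range of the other 3 aged mice for 4 genes (Scnn1b, Scnn1g, Hsd11b2 and Wnk1) and above it for 2 (Scnn1a and Stk39). Young mouse 4 was the lowest young mouse for 7 of the 10 genes.

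Across the 8 libraries, Hsd11b2 had a Pearson r of log2 CPM of 0.883 with Scnn1b and 0.873 with Scnn1g. By correlation with Hsd11b2, Scnn1b ranked only 592 and Scnn1g 709 among all genes tested. Scnn1b and Scnn1g had an r of 0.652. Scnn1a had an r of -0.597 with Scnn1g and of -0.283 with Scnn1b. Aged mouse 1 was the highest of the 8 for Scnn1a and the lowest for Scnn1b, Scnn1g and Hsd11b2. These r values lean on that library, and r without it was not computed. These are descriptions over 8 libraries of 2 groups, in which aged mouse 1 is far from the rest. The genes with the pattern most like Scnn1a were Exosc1 (r = 0.982), Tox4 (0.959) and Pvr (0.958), and those most like Scnn1b were Cstf2 (0.982), Rhbg (0.975) and Ckmt1 (0.975). Those most like Scnn1g were Hoxc6 (0.977), 4930402H24Rik (0.970) and Wdr8 (0.958), and those most like Hsd11b2 were Zranb2 (0.980), Gm16039 (0.979) and Galk2 (0.978).

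Markers of the segments that carry these genes moved between libraries as well. The summed level of 5 connecting tubule markers was 1277 to 2595 CPM in aged mice (median 2202) and 2641 to 3498 CPM in young mice (median 3237), without overlap. All 5 had a negative log2 fold change, as had 6399 of the 13944 genes tested. Calb1, Trpv5 and Klk1 did not overlap between groups, against 18.9% of all genes separated in either direction. None of the 5 had an adjusted p below 0.05. Aged mouse 1 had 0.547 times the connecting tubule sum of the other aged mice, beside 0.516 times their Hsd11b2 and 0.572 times their Scnn1g. The rest of the 10 genes did not share this size of difference. The ratio was 0.807 for Scnn1b, 0.839 for Wnk1, 0.893 for Klhl3 and 0.941 for Wnk4. It was 1.05 for Nr3c2, 1.09 for Nedd4l, 1.11 for Stk39 and 1.32 for Scnn1a. In aged mouse 1 the proximal tubule sum was 0.425 times and the principal cell sum 2.57 times that of the other aged mice. Of the principal cell markers, Aqp2 was at 271 CPM in aged mouse 1 against 91.0 to 138 CPM in the other aged mice, and Aqp4 at 187 against 3.15 to 30.2 CPM. Aqp3, at 76.6 CPM, lay within the other aged mice's range of 70.1 to 89.1 CPM, and Avpr2 was at 11.5 against 9.15 to 10.9 CPM. The part of these markers in the levels of the 10 genes was not tested.

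The principal cell sum was 193 to 557 CPM in aged and 197 to 290 CPM in young mice, with its highest value in aged mouse 1. The 4 distal convoluted tubule markers summed to 1488 to 1697 CPM in aged and 950 to 1476 CPM in young mice. Most of this sum was Slc12a3, with means of 1251 CPM in aged and 904 CPM in young mice. The other markers did not move together, with log2 fold changes of 0.42 for Trpm6, -0.05 for Sgms2 and -1.03 for Pvalb. The sum for intercalated cells was 157 to 247 CPM in aged and 203 to 254 CPM in young mice, and that for the thick ascending limb was 2119 to 3657 CPM in aged and 2964 to 5146 CPM in young mice. The proximal tubule sum was 7912 to 20172 CPM in aged and 17627 to 21800 CPM in young mice, with its lowest value in aged mouse 1 and 17500 to 20172 CPM in the other aged mice.

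Of cells outside the tubule, podocyte markers summed to 306 to 593 CPM in aged and 424 to 515 CPM in young mice, and endothelial markers to 286 to 457 and 342 to 375 CPM. Leukocyte markers summed to 176 to 285 CPM in aged and 140 to 198 CPM in young mice, and stromal markers to 153 to 240 and 218 to 269 CPM. The adrenal enzymes Cyp11b1 and Cyp21a1 were at 0 counts in all 8 libraries, and the 4 adrenal markers summed to at most 1.63 CPM. None of the marker genes tested had an adjusted p below 0.05.

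**Figure D5:**
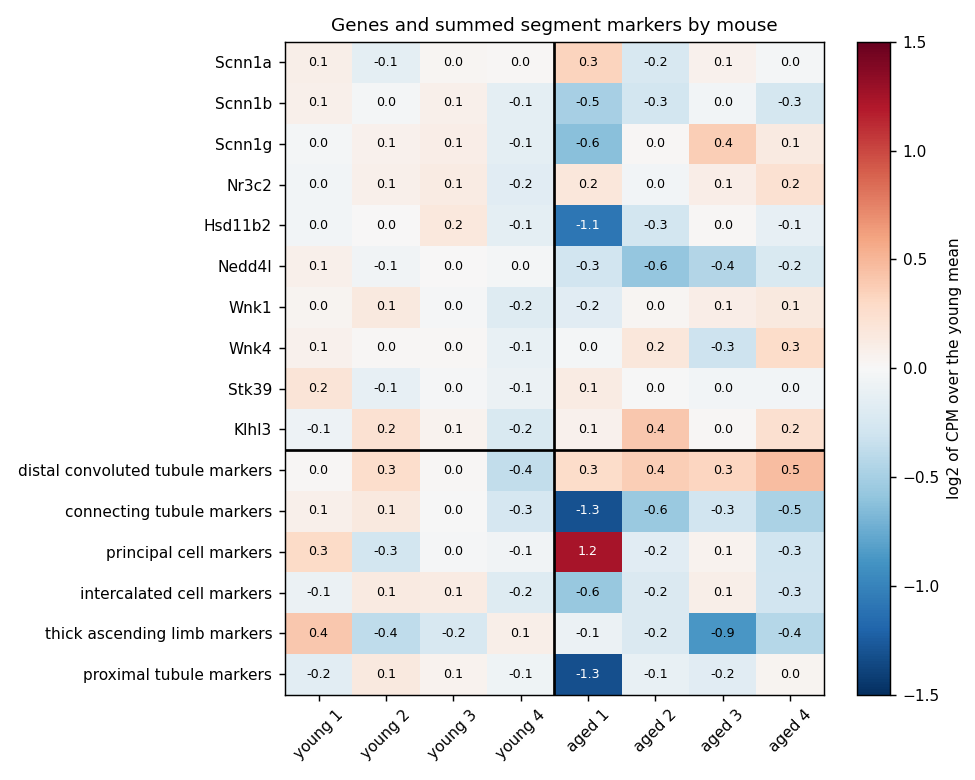
Log2 of the CPM in each library over the mean of the 4 young mice, for the 10 genes (above the line) and for the summed markers of 6 nephron segments or cell types (below it), with red higher and blue lower. In aged mouse 1 Hsd11b2 is at -1.1, connecting tubule markers at -1.3 and principal cell markers at 1.2, while Nedd4l is below 0 in all 4 aged mice.

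Around ENaC, 20 genes of its proteolytic processing, ubiquitination and kinase control were examined. None passed the criteria in either direction, against 2.06% of all genes, and their median log2 fold change was -0.10 against 0.03 over all genes tested. The 3 with the smallest p were Spint1, Sgk3 and Rictor. Spint1, an inhibitor of the proteases that cleave ENaC, was at 53.1 to 66.4 CPM in aged and 71.0 to 84.8 CPM in young mice (log2 fold change -0.41 ± 0.09, SE; adjusted p = 0.0512). Sgk3, a kinase related to Sgk1, was at 46.4 to 55.6 CPM in aged and 37.9 to 43.0 CPM in young mice (0.36 ± 0.08, SE; adjusted p = 0.0517).

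Rictor, the mTORC2 subunit needed to activate Sgk1, was at 104 to 138 CPM in aged and 87.8 to 96.5 CPM in young mice (log2 fold change 0.37 ± 0.10, SE; adjusted p = 0.0683). The groups did not overlap for any of these 3 genes, and over the 20 genes 3 were higher and 6 lower without overlap, against 18.9% of all genes separated in either direction. Among the 6, Prss8, the channel-activating protease prostasin, is named after its values were seen. It was at 151, 203, 205 and 276 CPM in aged mice 1 to 4 and at 294 to 357 CPM in young mice (log2 fold change -0.62 ± 0.17, SE; adjusted p = 0.0722).

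Sgk1, the aldosterone-induced kinase that inhibits Nedd4l action on ENaC, was at 490, 82.2, 266 and 105 CPM in aged mice 1 to 4. In young mice 1 to 4 it was at 75.4, 69.3, 66.6 and 98.5 CPM. Aged mice 1, 3 and 4 were above every young mouse and aged mouse 2 lay within the young range. The log2 fold change of 1.61 ± 0.51 (SE) did not pass the adjustment (adjusted p = 0.103). It was 0.96 (adjusted p = 0.135) without aged mouse 1 and 0.95 (adjusted p = 0.245) without aged mouse 1 and young mouse 1.

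Of the 20 genes listed as partners and targets of the WNK and SPAK cascade, 19 were tested and 1 passed, Wnk2, which fell, against 2.06% of all genes. It was at 5.06, 3.38, 3.79 and 4.03 CPM in aged mice 1 to 4 and at 6.90, 6.19, 7.48 and 7.56 CPM in young mice 1 to 4. The groups did not overlap (log2 fold change -0.79 ± 0.16, SE; adjusted p = 0.0439), but the call was lost without aged mouse 2 or 3 or any young mouse (adjusted p = 0.136 without young mouse 4), and without aged mouse 1 and young mouse 1 together. The list's median was -0.08 against 0.03 over all genes. Its 19 genes included 4 that were positive and 15 that were negative, beside 6399 negative of the 13944 genes tested.

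Slc12a3, the sodium chloride cotransporter that SPAK phosphorylates, was at 1164, 1215, 1298 and 1328 CPM in aged mice 1 to 4 and at 919, 1156, 903 and 636 CPM in young mice 1 to 4. Every aged value lay above every young one, with aged mouse 1 and young mouse 2 close together, and the difference did not pass the adjustment (log2 fold change 0.47 ± 0.17, SE; adjusted p = 0.133). Oxsr1, the kinase closest to SPAK, was at 32.4 to 43.5 CPM in aged and 39.8 to 44.1 CPM in young mice (adjusted p = 0.464). Cul3, the cullin that works with Klhl3, was at 162 to 217 CPM in aged and 201 to 215 CPM in young mice (adjusted p = 0.306).

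Of 14 genes known to be induced by mineralocorticoids or glucocorticoids, 2 passed as higher and 0 as lower, against 2.06% of all genes that passed in either direction. Without overlap of the groups, 2 were higher and 2 lower, against 18.9% of all genes separated in either direction. The 2 lower ones, named after their values were seen, were Usp2 and Atp1b1 (log2 fold change -0.77 and -0.34, edgeR adjusted p = 0.128 and 0.103). Zbtb16, a zinc finger factor induced by steroids, was at 149, 21.9, 40.7 and 37.6 CPM in aged mice 1 to 4 and at 9.00, 8.25, 5.92 and 7.80 CPM in young mice 1 to 4. All aged mice were above all young mice, and aged mouse 1 was far above the other aged mice (log2 fold change 3.00 ± 0.57, SE; adjusted p = 0.0390). Without aged mouse 1 its log2 fold change was 2.11. The call was lost without aged mouse 3 or any one young mouse.

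Edn1 encodes endothelin 1, which in the collecting duct inhibits sodium uptake. It was at 5.45, 3.90, 3.79 and 2.29 CPM in aged mice 1 to 4 and at 1.17, 1.27, 1.22 and 0.945 CPM in young mice 1 to 4, without overlap (log2 fold change 1.74 ± 0.28, SE; adjusted p = 0.0267). Its log2 fold change was 1.52 without aged mouse 1. The call was lost without aged mouse 2 or 3 or any one young mouse, and without aged mouse 1 and young mouse 1 together. The list's median was 0.10 against 0.03 over all genes, with 8 genes positive and 6 negative.

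Of 11 genes of steroid receptor function, 2 fell and 0 rose, against 2.06% of all genes that passed in either direction. The list's median was -0.15 against 0.03 over all genes. Both that fell encode the cytosolic chaperone HSP90, which holds steroid receptors in a ligand-binding state. Hsp90aa1 was at 112, 187, 230 and 147 CPM in aged mice 1 to 4 and at 366, 319, 360 and 417 CPM in young mice 1 to 4 (log2 fold change -1.11 ± 0.20, SE; adjusted p = 0.0361). Hsp90ab1 was at 728, 1061, 1168 and 974 CPM in aged mice 1 to 4 and at 1554, 1560, 1498 and 1808 CPM in young mice 1 to 4 (-0.71 ± 0.15, SE; adjusted p = 0.0483).

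Neither gene's groups overlapped, with aged mouse 1 the lowest for both. Neither call held without aged mouse 2, without any one young mouse, or without aged mouse 1 and young mouse 1 together, and that of Hsp90ab1 was also lost without aged mouse 3. Sgk1, Tsc22d3 and Usp2 stand on 2 of these lists, and Slc12a3 and others are also segment markers.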

How the data were processed

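Cortex RNA of 8 male mice, 4 aged and 4 young, was sequenced as stranded paired-end libraries. Per the study's methods and notes, the authors aligned the pairs to mm9 with TopHat2, counted them on RefSeq genes with HTSeq and deposited raw counts per gene, without normalization. The joint table held the same values as the 8 library files. Lines that name no gene were left out. Of all counts, including those lines, 20.0% to 29.9% fell on no gene and 34.3% to 39.1% were listed as not unique. The labels give no batch.

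Counts were tested in R 4.3.3 with edgeR 4.0.16 (quasi-likelihood test, TMM, filterByExpr with a minimum count of 10, Benjamini-Hochberg over 13944 genes). The standard error is the log2 fold change divided by the square root of F. DESeq2 1.42.0, limma 3.58.1 (voom with quality weights), other scalings and filters, and each library left out were alternatives. On simulated counts of 13850 genes with 200 changed, edgeR recovered 83% with 7.26% of its calls false, and DESeq2 89% with 18.7% false. Whether these rates hold for the 10 genes and for these 8 libraries was not tested.

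Coordinates and lengths came from the GENCODE annotation of mm9. Windows of 100 nt of each transcript were searched in mm9 with BLAST 2.17.0 at 98% identity, and 0% of them had a copy for any of the 10 genes. The 10 genes, the 4 gene lists, the markers and the tests were chosen with earlier results of these data known. Named from the lists were genes with an adjusted p below 0.05, otherwise the 3 with the smallest p per list, and Sgk1, Nr3c1, Slc12a3, Oxsr1 and Cul3, with the 3 genes most correlated with each ENaC subunit and Hsd11b2. No source says whether the mice of a group shared a litter or day. Intervals and floors cover counting or library spread only.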

Additional observations from a re-analysis of the deposited data

Results flagged for a closer look

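In groups of 4, a library was singled out where its gap to the nearest other library took up more of the group's range than Dixon's 95% critical value. This happened in 10 of 82 groups examined. At 1 in 20 the number would be 4.1 for independent groups of normally distributed values. These groups share mice and genes, so 4.1 is only a guide.

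Aged mouse 1 was the source of 5 of these. The share of the range was 0.858 for its low ratio of Scnn1g to Scnn1a (0.157 against 0.343 to 0.374) and 0.831 for its high ratio of Scnn1b to Scnn1g (1.16 against 0.800 to 0.860). It was 0.851 for its high Zbtb16 (149 against 21.9 to 40.7 CPM), 0.854 for its high principal cell marker sum and 0.999 for its high inner medullary Slc14a2 (89.2 CPM against at most 0.327 in the other aged mice). Young mouse 1 had a share of 0.991 for its high Slc14a2 (26.7 CPM against at most 0.236 in the other young mice).

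Aged mouse 3 had a share of 0.981 for its low ratio of Wnk4 to Wnk1 (0.133 against 0.194 to 0.195). Young mouse 2 had a share of 0.895 for its high Rictor (96.5 against 87.8 to 88.7 CPM) and 0.859 for its high sum of endothelial markers. Young mouse 3 had a share of 0.835 for its high Sgk3 (43.0 against 37.9 to 38.7 CPM). The causes of these values were not tested.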

How the results depend on the processing

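Over 19 alternatives, none of the 10 genes passed the criteria. Of the 190 values, 5 had an adjusted p below 0.05, all for Nedd4l (DESeq2, voom, length and GC trend removed, without aged mouse 1, without aged mouse 4). Its log2 fold change ran from -0.55 with the length and GC trend removed to -0.27 with library size alone, and its adjusted p reached 0.162 without young mouse 1. Scnn1g changed sign, from -0.12 without aged mouse 3 to 0.18 without aged mouse 1, and was called in neither. Scnn1a, Nr3c2, Wnk1, Wnk4 and Stk39, all within 0.12 of 0 in the report, were below 0 with the length and GC trend removed, which moved the median of all genes to -0.08. Scaling by library size alone moved the median of all genes from 0.03 to 0.14. Deviations of log2 CPM from the group mean, taken over all genes tested, were compared between same-numbered aged and young libraries. They correlated at 0.206, 0.038, 0.199 and -0.030, so the numbers were not taken to pair the mice.

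The 287 genes called became 873 with DESeq2, 483 with voom, 488 with library size alone, 165 at a fold threshold of 2 and 130 with the replicate number as a block. They were 51 without aged mouse 1 and young mouse 1, an alternative chosen after seeing the data, and 8 (without young mouse 1) to 733 (without aged mouse 4) with 1 library left out. The ratio of Hsd11b2 to Nr3c2 differed by -0.48 with the replicate block (exact permutation p = 0.125, the smallest possible), by -0.22 without aged mouse 1 and young mouse 1, and by -0.61 to -0.22 with 1 library left out, where no p below 0.05 is possible.

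In the ENaC list, the genes called lower rose from 0 to 2 with DESeq2 and 1 with voom, and were 0 to 2 with 1 library left out. In the WNK list, the 1 lower gene became 0 with library size alone, with the block and without aged mouse 1 and young mouse 1, and 0 to 1 with 1 library left out. Of the steroid-induced genes, the 2 called higher became 1 without those mice and 0 to 2 with 1 library left out, and the 0 called lower became 1 with DESeq2 or voom and 0 to 1 with 1 library left out. Of the receptor list, the 2 called lower became 3 with the length and GC trend removed, 1 with upper-quartile scaling, library size alone or either filter, 0 with the block or without those mice, and 0 to 2 with 1 library left out. The cause of these differences was not tested.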
